A study of Homo sapiens with 9 samples.

Results

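The transcripts of 46 genes of the Wnt pathway were followed in OVCAR3 cells, a line derived from human epithelial ovarian cancer, in which CTCFL was raised or lowered. The genes were a list of Wnt ligands, their receptors and co-receptors, secreted antagonists, signal transducers, TCF/LEF transcription factors and feedback genes. The list was chosen with earlier results of these data known, and was matched by symbol to the identifiers of the count matrix. All 46 were found among its 60660 genes. They comprised 13 Wnt ligands, 2 genes of ligand acylation and secretion, 10 Frizzled receptors, 2 co-receptors, 3 secreted antagonists, 4 R-spondin receptors and receptor-clearing ligases, 8 genes of the Dishevelled proteins and the β-catenin destruction complex, and 4 TCF/LEF factors.

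RNA-seq was available for 9 libraries in 3 groups, Control, CTCFL-OE and CTCFL-KD. Each group had 3 biological replicates. By the study's methods, each replicate of the plasmid transfections had been pooled from 3 technical replicates, and no pooling is stated for CTCFL-KD. CTCFL, also called BORIS, is a paralog of the DNA-binding factor CTCF that is normally confined to the germ line. CTCFL-OE cells had received 2 µg of a plasmid carrying the *CTCFL* open reading frame and were collected after 48 h, and Control cells carried a LacZ plasmid by the study's methods, with no CTCFL treatment in their labels. CTCFL-KD cells had been treated with siRNA in an earlier, separately published experiment. The overexpression was transient and its efficiency per cell is not given, and all groups were a single cell line. No siRNA control was among the samples. The knockdown and the difference between experiments therefore cannot be told apart in any comparison of CTCFL-KD with Control or CTCFL-OE. Both comparisons used the same 3 Control libraries.

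Wnt ligands are secreted lipid-modified proteins. PORCN attaches the lipid, WLS carries the ligand to the cell surface, and the ligand binds a Frizzled receptor together with LRP5 or LRP6. Without ligand, the destruction complex of AXIN, APC and its kinases marks β-catenin, the product of CTNNB1, for degradation. With ligand, Dishevelled recruits AXIN to the receptor, β-catenin accumulates, and TCF/LEF factors use it to switch on targets that include the brakes AXIN2, RNF43, ZNRF3 and NKD1. Some ligands, WNT5A and WNT11 among them, also act through Frizzled without β-catenin, on cell movement and polarity.

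Total counts per library ranged from 14332622 to 24490080. The targeted gene moved as labelled, with *CTCFL* counts of 6, 9 and 10 across Control, 36, 34 and 72 across CTCFL-OE, and 0, 1 and 0 across CTCFL-KD. A library with 0 counts could still hold up to 3. Counts of *CTCFL* were few even in Control, so the size of its fall in CTCFL-KD is poorly set, and no test of it is given here. Mitochondrial genes took 6.16% to 6.52% of the counts of Control libraries, 7.40% to 14.9% of those of CTCFL-OE, and 7.80% to 11.8% of those of CTCFL-KD. CTCFL-KD replicate 1 stood apart, with a TMM factor of 0.775 against 0.945 to 1.09 in the other libraries and log2 ratios to Control that correlated with transcript length across 15327 genes at Spearman's rho −0.33, against −0.28 for Control replicate 1 and −0.05 to 0.19 for the others, a description across genes that are not independent. Epithelial markers of this line, *PAX8*, *KRT8*, *EPCAM* and *MUC16* among them, were abundant throughout, with a summed level of 5528 to 5626 CPM (counts scaled to a common library size) across Control, 4972 to 5232 across CTCFL-OE, and 9470 to 16049 across CTCFL-KD. Of the 11 epithelial markers tested in CTCFL-KD, 7 were differentially expressed genes (DEGs, a fold change above 2 and an adjusted p below 0.05 in edgeR) that rose, *MUC16*, *EPCAM* and *KRT8* among them, against 15.3% of all genes. *KRT7* was a lower DEG (log2 fold change −1.12, adjusted p = 0.0164), *CDH1* was higher and *WT1* lower by adjusted p alone (log2 fold change 0.85 and −0.63, edgeR adjusted p = 0.0134 and 0.0272), and *PAX8* did not pass. Only *ESR1* of the 12 epithelial markers stayed at or under 20 counts in every library.

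Of the 46 Wnt genes, 44 passed the filter on low counts and were tested. The untested genes were *WNT3A*, with 2 to 4 counts in every library, and *FZD10*, with 0 counts in all 9. *WNT4*, *WNT5B* and *DKK1* passed the filter only through CTCFL-KD libraries, as did 828 of the 17794 genes tested, so a scarce gene that rose in CTCFL-KD was tested where one that did not rise was dropped. The test was the quasi-likelihood test of edgeR, with p adjusted by Benjamini-Hochberg over all 17794 genes tested. A DEG had a fold change above 2 and an adjusted p below the study's limit, which was 0.1 for CTCFL-OE and 0.05 for CTCFL-KD. In CTCFL-OE, 1 Wnt gene was a higher DEG, *FZD4*, and 1 was a lower DEG, *WNT9A*, where 1.37% of all genes tested were higher DEGs and 0.702% lower DEGs. The adjusted p, taken without the fold threshold, was passed by the same 2 Wnt genes and by 3.15% of all genes. DESeq2 on the same libraries called 5 Wnt genes, these 2 with *FZD8*, *LGR5* and *WNT11*, and 3.02% of the 18029 genes it tested. In CTCFL-KD, 18 Wnt genes were higher DEGs and 4 were lower DEGs, against 15.3% and 7.94% of all genes. The adjusted p without the fold threshold was passed by 25 of the 44 Wnt genes in CTCFL-KD, against 38.2% of all genes. The median log2 fold change of the 44 genes was 0.07 in CTCFL-OE and 0.50 in CTCFL-KD, while that of all genes was −0.01 and 0.08. Without CTCFL-KD replicate 1, the library that stood apart, 24 Wnt genes were DEGs in CTCFL-KD, the 22 with *WNT10A* and *ZNRF3*, and DEGs in either direction were 22.1% of all genes, against 23.2% with all 9 libraries.

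**Figure D1:**
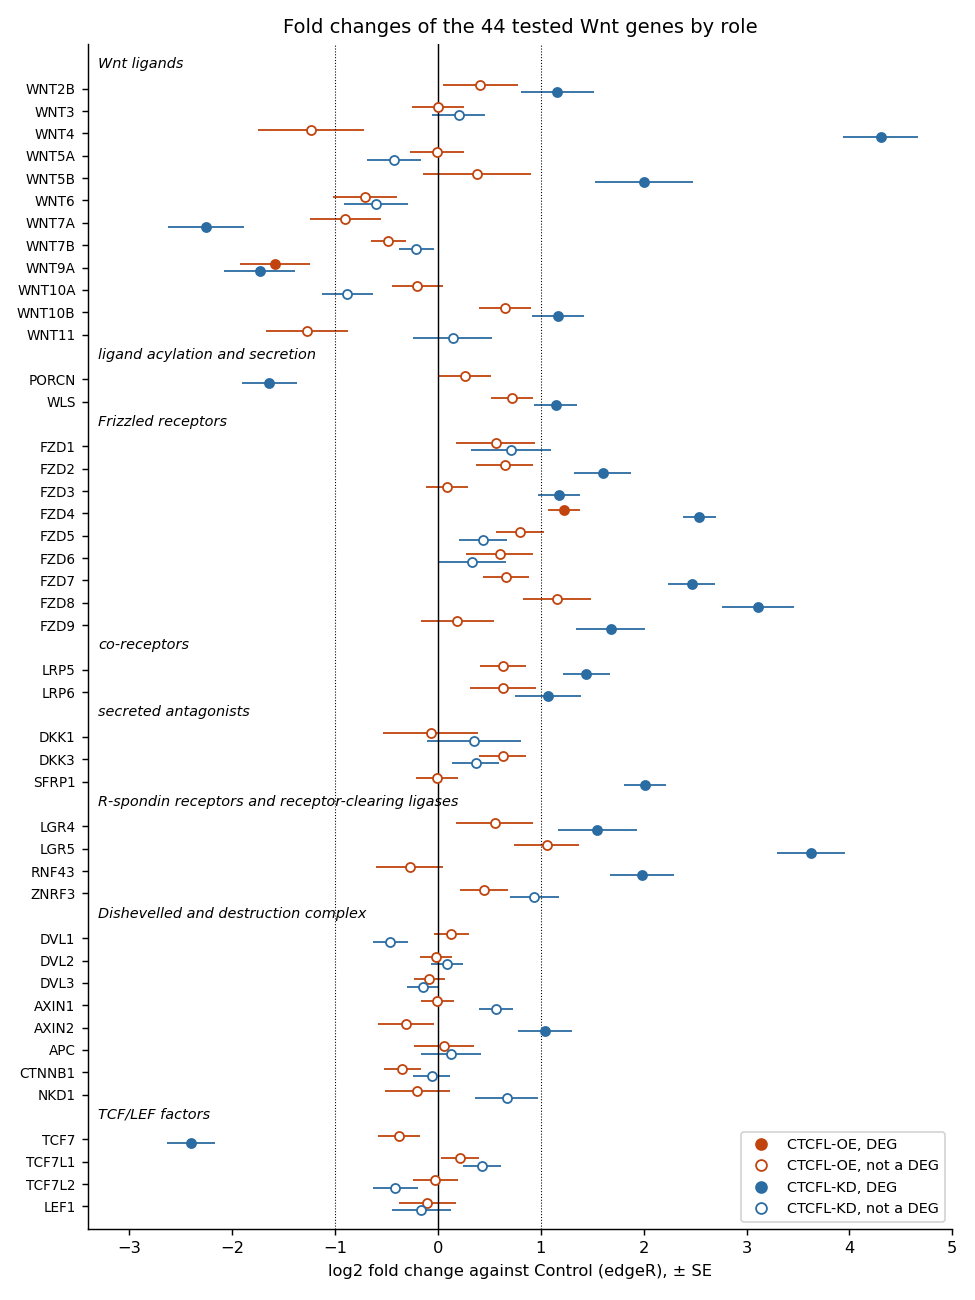
Log2 fold change against Control (x axis, edgeR, bars show ± SE) of the 44 tested Wnt genes grouped by role, in CTCFL-OE (orange) and CTCFL-KD (blue); filled points are DEGs and dotted lines mark a fold change of 2. In CTCFL-KD the receptor, co-receptor and R-spondin receptor genes lie to the right of 0 and the ligands lie on both sides, from −2.26 for *WNT7A* to 4.30 for *WNT4*.

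*FZD4* and *WNT9A* were the Wnt genes that were DEGs in both comparisons. The study names both among cancer-associated genes of interest, a choice made on these same libraries, so their calls here are not independent evidence. *FZD4* encodes a Frizzled receptor known for its role in retinal vessel growth, and *WNT9A* a ligand first studied in joint formation. *FZD4* stands on chromosome 11, minus strand (GRCh38), and *WNT9A* on chromosome 1, minus strand, 59065 bases from *WNT3A*. The 250 bases before the RefSeq start of each, with those of *WNT7A*, the ligand that fell most in CTCFL-KD, are shown as the promoter stretches of these 3 genes. Capitals mark AGGGGGC, searched on both strands, the core letters of the binding motif of the CTCF family. Positions are counted back from the start, and the sequences are written 5′ to 3′ on the gene's strand, from RefSeq on GRCh38.p14.
FZD4 (chr11:86955396-86955645, minus): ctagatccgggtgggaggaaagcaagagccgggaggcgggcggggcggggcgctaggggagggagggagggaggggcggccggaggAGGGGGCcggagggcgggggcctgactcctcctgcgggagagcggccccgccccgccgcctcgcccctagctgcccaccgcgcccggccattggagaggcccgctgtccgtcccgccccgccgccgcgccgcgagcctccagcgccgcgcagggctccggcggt
WNT9A (chr1:227947933-227948182, minus): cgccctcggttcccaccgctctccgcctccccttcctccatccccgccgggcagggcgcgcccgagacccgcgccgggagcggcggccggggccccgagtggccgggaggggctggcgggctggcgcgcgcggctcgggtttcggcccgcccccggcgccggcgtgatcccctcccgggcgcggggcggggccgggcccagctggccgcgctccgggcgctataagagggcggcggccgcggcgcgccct
WNT7A (chr3:13880072-13880321, minus): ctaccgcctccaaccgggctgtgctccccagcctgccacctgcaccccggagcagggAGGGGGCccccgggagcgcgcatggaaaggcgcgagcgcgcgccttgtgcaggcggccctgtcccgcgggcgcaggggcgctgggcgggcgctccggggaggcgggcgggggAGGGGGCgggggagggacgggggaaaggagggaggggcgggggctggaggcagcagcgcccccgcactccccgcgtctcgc
*FZD4* held these letters once, 164 to 158 bases before its start, *WNT7A* held them at 193 to 187 and 81 to 75 bases before its start, and the *WNT9A* stretch held none on either strand. GC made up 80.8% of the *FZD4* stretch, 84.4% of the *WNT9A* stretch and 80.4% of the *WNT7A* stretch.

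In CPM scaled by TMM, *FZD4* was at 6.56, 6.10 and 5.42 across Control, 14.5, 13.9 and 13.9 across CTCFL-OE, and 34.8, 36.1 and 34.3 across CTCFL-KD. The 3 groups did not overlap, and within each group the libraries lay close together. Its fold change was 2.34 in CTCFL-OE (log2 fold change 1.22, SE 0.16, adjusted p = 0.00629) and 5.81 in CTCFL-KD (log2 fold change 2.54, SE 0.16, adjusted p = 3.13e-06). CTCFL-KD also exceeded CTCFL-OE (log2 fold change 1.31, SE 0.15, adjusted p = 0.000157). *FZD4* shared 1399 exonic bases, 18.9% of its exons, with *PRSS23* on the opposite strand, and the strand setting of the counting is not given in the sources used here. *PRSS23* counts were 3330, 4237 and 3343 across Control, 2352, 1554 and 2122 across CTCFL-OE, and 2379, 4737 and 5316 across CTCFL-KD.

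*WNT9A* was at 8.01, 6.80 and 8.26 across Control, 1.323, 2.77 and 3.69 across CTCFL-OE, and 1.53, 2.97 and 2.30 across CTCFL-KD. Every library of both treated groups lay below every Control library, and the treated groups overlapped each other. The fold decrease was 2.99 in CTCFL-OE (log2 fold change −1.58, SE 0.34, adjusted p = 0.055) and 3.33 in CTCFL-KD (log2 fold change −1.73, SE 0.35, adjusted p = 0.003). CTCFL-KD and CTCFL-OE differed by a log2 of −0.15 (SE 0.36, adjusted p = 0.778), an estimate whose error leaves room for a difference in either direction. The CTCFL-OE call was lost without any 1 of the 3 Control replicates (adjusted p = 0.22, 0.188 and 0.254) and without CTCFL-OE replicate 2 (adjusted p = 0.208), while its log2 fold change stayed between −1.92 and −1.26 in all 18 alternatives.

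**Figure D2:**
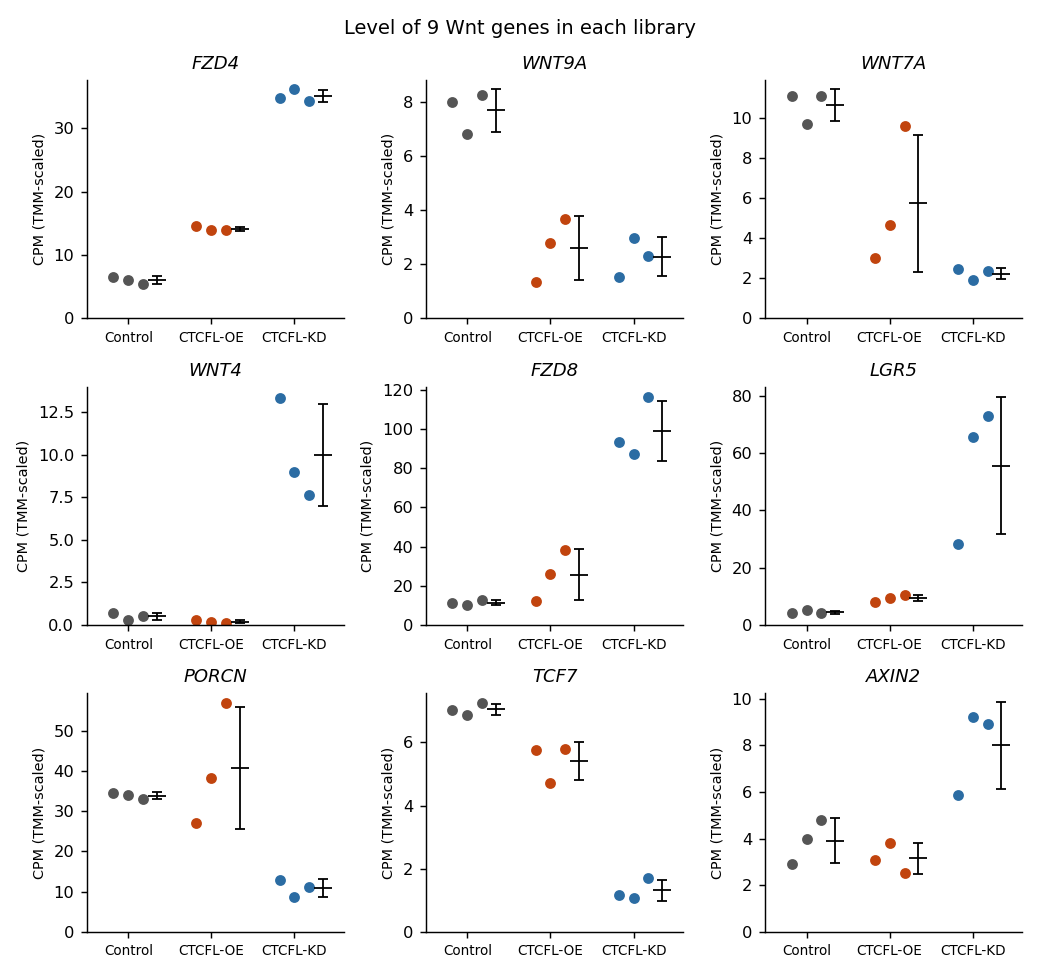
Level (y axis, TMM-scaled CPM, from 0) of 9 Wnt genes in each library of the 3 groups; points are libraries, and the bar beside them is the mean with its SD (n = 3). *FZD4* forms 3 separate steps, *WNT9A* is low in both treated groups, and *LGR5* and *AXIN2* are lowest in replicate 1 among the CTCFL-KD libraries.

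The ligands were led in Control, per kilobase of exon, by *WNT10A* (25.4 ± 1.3 CPM per kb, SD, n = 3), *WNT11* (18.5 ± 0.98) and *WNT5A* (16.3 ± 0.69). *WNT7B* followed at 5.12 ± 0.33, then *WNT7A* at 2.35 ± 0.18, *WNT9A* at 1.92 ± 0.19, *WNT6* at 1.70 ± 0.068, *WNT10B* at 1.08 ± 0.089 and *WNT3* at 0.497 ± 0.023. *WNT4*, *WNT5B* and *WNT2B*, between 0.0876 and 0.109, did not differ beyond their SD, and neither did *WNT9A* and *WNT6*. Of 12 ligands tested in CTCFL-KD, 4 were higher DEGs, 2 were lower DEGs, 1 fell by adjusted p alone and 5 did not pass, where 15.3% of all genes were higher DEGs, 7.94% lower DEGs and 38.2% passed the adjusted p. The 4 higher DEGs were *WNT4*, *WNT5B*, *WNT10B* and *WNT2B*, of which *WNT4* and *WNT5B* were tested only because of their CTCFL-KD counts.

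*WNT4*, a ligand of the female reproductive tract that is needed for Müllerian duct formation, had counts of 14, 8 and 10 across Control, 7, 3 and 2 across CTCFL-OE, and 148, 151 and 139 across CTCFL-KD. All CTCFL-KD libraries held at least 139 counts and all other libraries at most 14. On the CPM scale it was 19.8-fold higher in CTCFL-KD than in Control (log2 fold change 4.30, SE 0.36, adjusted p = 1.6e-05), the largest fold change of the 44 genes. The CTCFL-OE counts were at or under 7, and its difference from Control there did not pass (log2 fold change −1.23, SE 0.51, adjusted p = 0.247). Per length, *WNT4* in CTCFL-KD reached 2.15 ± 0.64 CPM per kb, close to *WNT10B* at 2.44 ± 0.44.

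*WNT5B*, a ligand that mostly acts without β-catenin, had counts of 6, 12 and 9 across Control, 4, 12 and 14 across CTCFL-OE, and 23, 32 and 20 across CTCFL-KD. All 3 CTCFL-KD values exceeded the Control values, from a low base (log2 fold change 2.00, SE 0.47, adjusted p = 0.00732). *WNT10B*, a canonical ligand known in fat, bone and mammary tissue, was at 2.65, 3.07 and 2.68 across Control, 3.24, 4.18 and 5.90 across CTCFL-OE, and 7.67, 5.53 and 5.86 across CTCFL-KD. Its CTCFL-KD libraries lay above Control (log2 fold change 1.17, SE 0.26, adjusted p = 0.0048), and so did its CTCFL-OE libraries, without passing the test (log2 fold change 0.65, SE 0.26, adjusted p = 0.219). With offsets for transcript length and GC its CTCFL-KD log2 fold change was 0.84, under the fold threshold.

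*WNT2B*, a ligand of stem-cell niches in the gut and eye, had counts of 17, 24 and 29 across Control, 19, 36 and 26 across CTCFL-OE, and 18, 46 and 51 across CTCFL-KD. The CTCFL-KD libraries lay above Control in CPM (log2 fold change 1.16, SE 0.36, adjusted p = 0.0256), with CTCFL-KD replicate 1 the nearest to Control. The call was lost without Control replicate 1 or 2 (adjusted p = 0.0992 and 0.0989) or CTCFL-KD replicate 2 or 3 (adjusted p = 0.0668 and 0.0739). *WNT2B* also shared 2665 exonic bases, 21.5% of its exons, with *ST7L* on the opposite strand.

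*WNT7A*, a ligand of the oviduct and uterus that patterns the Müllerian duct, was at 11.1, 9.71 and 11.1 across Control, 3.01, 4.65 and 9.59 across CTCFL-OE, and 2.44, 1.90 and 2.36 across CTCFL-KD. Both treated groups lay below Control without overlap, and CTCFL-OE spanned a wide range, its replicate 3 reaching 9.59 against a Control minimum of 9.71. *WNT7A* fell 4.78-fold in CTCFL-KD (log2 fold change −2.26, SE 0.37, adjusted p = 0.000988), and in CTCFL-OE the estimate did not pass (log2 fold change −0.90, SE 0.34, adjusted p = 0.207). CTCFL-KD lay below CTCFL-OE as well (log2 fold change −1.36, SE 0.38, adjusted p = 0.0218). That last call was lost with edgeR on the 2 groups compared, without CTCFL-OE replicate 3 and without CTCFL-KD replicate 2.

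*WNT10A*, best known for its part in teeth and hair, was at 75.0, 70.1 and 77.4 across Control, 44.9, 57.6 and 91.0 across CTCFL-OE, and 48.3, 33.7 and 39.0 across CTCFL-KD. Every CTCFL-KD library lay below Control, and the fall passed the adjusted p but not the fold threshold (log2 fold change −0.88, SE 0.25, adjusted p = 0.0182). CTCFL-OE overlapped Control. *WNT10A* starts 6618 bases from the end of *WNT6* on chromosome 2, both on the plus strand. *WNT6* counts were 61, 74 and 56 across Control, 23, 40 and 37 across CTCFL-OE, and 29, 29 and 28 across CTCFL-KD, and both treated groups lay below Control in CPM without passing (log2 fold change −0.71, SE 0.31, adjusted p = 0.266 in CTCFL-OE and log2 fold change −0.60, SE 0.31, adjusted p = 0.151 in CTCFL-KD). With length and GC offsets, *WNT10A* and *WNT6* were both lower DEGs in CTCFL-KD.

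*WNT11*, a ligand of cell movement and β-catenin-independent signals, was at 46.6, 42.9 and 42.4 across Control, 8.03, 15.7 and 31.0 across CTCFL-OE, and 64.5, 36.7 and 44.7 across CTCFL-KD. CTCFL-OE lay wholly below Control yet varied widely within the group, and its decrease did not pass (log2 fold change −1.27, SE 0.40, adjusted p = 0.142). CTCFL-KD overlapped Control (log2 fold change 0.14, SE 0.39, adjusted p = 0.793) and exceeded CTCFL-OE (log2 fold change 1.42, SE 0.40, adjusted p = 0.0234). The call against CTCFL-OE was lost with edgeR on the 2 groups compared and without CTCFL-OE replicate 2. *WNT5A*, *WNT7B* and *WNT3* did not pass in either comparison, with log2 fold changes from −0.43 to 0.20 in CTCFL-KD and from −0.49 to 0.00 in CTCFL-OE. Summed per length over the 13 ligands, Control libraries held 70.0 to 74.9 CPM per kb, CTCFL-OE 39.7 to 76.3 and CTCFL-KD 53.4 to 65.1. *WNT11* made up 25.3% of the Control sum, 13.0% of the CTCFL-OE sum and 34.4% of the CTCFL-KD sum.

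Both genes of ligand processing were DEGs in CTCFL-KD, in opposite directions, where 15.3% of all genes were higher and 7.94% lower DEGs. *PORCN*, the acyltransferase that adds the lipid, was at 34.6, 34.0 and 33.0 across Control, 27.0, 38.3 and 57.0 across CTCFL-OE, and 13.0, 8.68 and 11.1 across CTCFL-KD. All CTCFL-KD libraries lay below those of both other groups, and it fell 3.11-fold (log2 fold change −1.64, SE 0.27, adjusted p = 0.000884). CTCFL-OE overlapped Control (log2 fold change 0.27, SE 0.25, adjusted p = 0.611). *WLS*, the carrier that takes acylated ligand through the secretory route, was at 169, 167 and 169 across Control, 212, 261 and 359 across CTCFL-OE, and 377, 356 and 383 across CTCFL-KD. It rose 2.21-fold in CTCFL-KD (log2 fold change 1.14, SE 0.21, adjusted p = 0.00179), and the CTCFL-OE libraries also lay above Control without passing (log2 fold change 0.72, SE 0.21, adjusted p = 0.122).

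Among the Frizzled receptors, the seven-pass proteins that bind the ligand, 6 of 9 tested were higher DEGs in CTCFL-KD, against 15.3% of all genes, and the log2 fold changes of all 9 lay above 0. The 6 were *FZD2*, *FZD3*, *FZD4*, *FZD7*, *FZD8* and *FZD9*. *FZD8* was at 11.5, 10.3 and 12.7 across Control, 12.5, 26.0 and 38.3 across CTCFL-OE, and 93.3, 87.2 and 116 across CTCFL-KD. The lowest CTCFL-KD library lay far above the highest of the other groups, 38.3 CPM, and the rise was 8.63-fold (log2 fold change 3.11, SE 0.35, adjusted p = 9.42e-05). In CTCFL-OE replicates 2 and 3 lay above Control and replicate 1 did not, and the difference missed the threshold (log2 fold change 1.15, SE 0.33, adjusted p = 0.121).

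*FZD7*, a receptor of epithelial stem cells, was at 8.56, 8.47 and 8.81 across Control, 9.71, 13.6 and 17.7 across CTCFL-OE, and 39.4, 50.3 and 53.0 across CTCFL-KD. The groups did not overlap, and the rise was 5.52-fold in CTCFL-KD (log2 fold change 2.47, SE 0.23, adjusted p = 2.99e-05), while CTCFL-OE did not pass (log2 fold change 0.66, SE 0.22, adjusted p = 0.167). *FZD2*, linked to *WNT5A* signalling, was at 27.9, 25.1 and 27.1 across Control, 27.5, 42.3 and 56.0 across CTCFL-OE, and 109.9, 65.4 and 67.9 across CTCFL-KD, with CTCFL-KD replicate 1 far above the other libraries. It rose 3.03-fold in CTCFL-KD (log2 fold change 1.60, SE 0.28, adjusted p = 0.00139).

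*FZD3*, a receptor of axon guidance and planar polarity, was at 23.5, 19.1 and 23.0 across Control, 22.8, 18.5 and 28.5 across CTCFL-OE, and 41.9, 48.4 and 57.9 across CTCFL-KD. CTCFL-OE lay on both sides of Control, and CTCFL-KD lay above it (log2 fold change 1.18, SE 0.21, adjusted p = 0.00138). *FZD9* was scarce, with counts of 18, 27 and 14 across Control, 20, 20 and 18 across CTCFL-OE, and 49, 34 and 43 across CTCFL-KD, and its CTCFL-KD libraries lay above Control in CPM (log2 fold change 1.68, SE 0.33, adjusted p = 0.00294). *FZD1*, *FZD5* and *FZD6* did not pass in either comparison, with log2 fold changes of 0.71, 0.44 and 0.33 in CTCFL-KD and 0.56, 0.80 and 0.60 in CTCFL-OE.

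The order of the receptors by level per length differed between Control and CTCFL-KD. In Control, *FZD6* led at 13.1 ± 0.69 CPM per kb, followed by *FZD2* at 7.07 ± 0.39, *FZD8* at 2.83 ± 0.30 and *FZD5* at 2.40 ± 0.091. *FZD7* at 1.88 ± 0.038, *FZD1* at 1.78 ± 0.067 and *FZD3* at 1.59 ± 0.17 followed, and *FZD1* did not differ from either neighbour beyond their SD. *FZD4* and *FZD9* came last at 0.816 ± 0.078 and 0.378 ± 0.073. In CTCFL-KD, *FZD8* stood at 24.4 ± 3.8, *FZD2* at 21.5 ± 6.6 and *FZD6* at 16.5 ± 7.2 CPM per kb, a leading set whose spreads overlapped. Summed over the Frizzled genes, the level was 30.5 to 33.1 CPM per kb across Control, 35.1 to 68.8 across CTCFL-OE, and 83.4 to 96.0 across CTCFL-KD. The 3 groups did not overlap. *FZD6* made up 41.2% ± 1.45 (SD, n = 3) of the sum in Control and 18.4% ± 7.42 in CTCFL-KD, and *FZD8* 8.87% ± 0.57 in Control and 27.5% ± 2.43 in CTCFL-KD. In CTCFL-OE the share of *FZD6* was 39.2% ± 1.28 and that of *FZD8* 11.8% ± 2.69. The share of *FZD2* was 22.2% ± 0.842 in Control and 21.6% ± 0.998 in CTCFL-OE, that of *FZD4* 2.57% ± 0.309 and 4.04% ± 1.44, and that of *FZD3* 4.98% ± 0.41 and 3.48% ± 1.08.

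**Figure D3:**
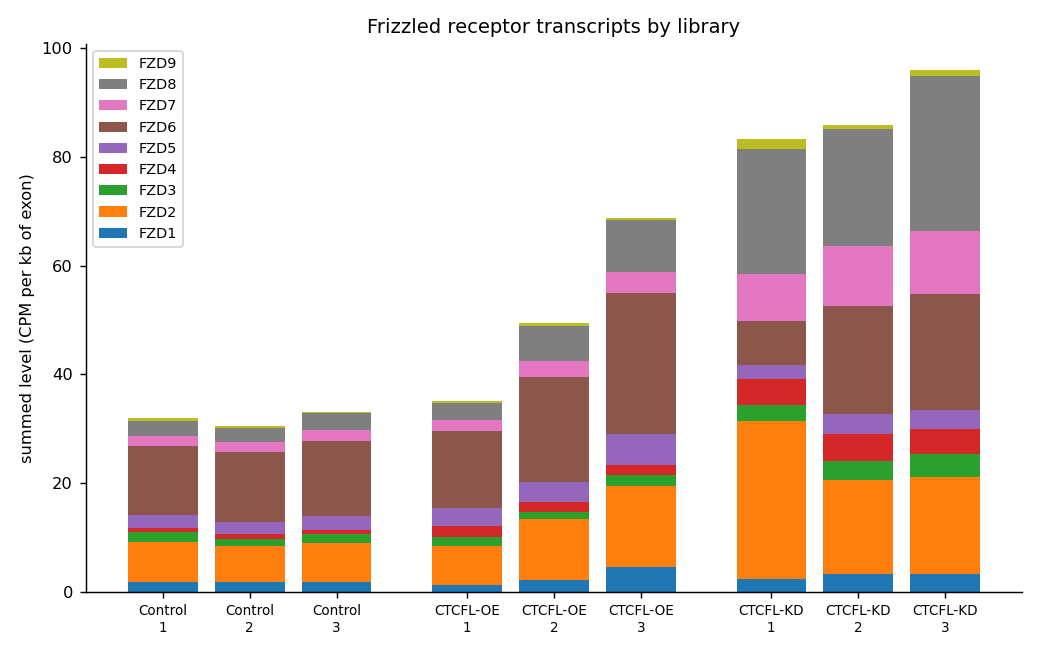
Level of the Frizzled transcripts in each library (y axis, CPM per kilobase of exon, stacked from 0, one colour per gene; *FZD10* had 0 counts). The CTCFL-KD bars reach 83.4 to 96.0, above every Control bar (30.5 to 33.1) and every CTCFL-OE bar (35.1 to 68.8), and within them *FZD6* takes a smaller share and *FZD8* a larger one than in Control.

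Both co-receptors were higher DEGs in CTCFL-KD, as were 15.3% of all genes. *LRP5* was at 60.8, 64.7 and 64.8 across Control, 68.5, 98.7 and 127 across CTCFL-OE, and 150.3, 194 and 174 across CTCFL-KD, without overlap between the 3 groups. It rose 2.72-fold in CTCFL-KD (log2 fold change 1.44, SE 0.23, adjusted p = 0.000719). *LRP6* was at 71.0, 76.7 and 82.1 across Control, 85.7, 119 and 152 across CTCFL-OE, and 82.7, 196 and 203 across CTCFL-KD, and CTCFL-KD replicate 1 lay just above the highest Control library while the other 2 were far above it. The rise was 2.10-fold (log2 fold change 1.07, SE 0.32, adjusted p = 0.0228), just past the fold threshold. With the replicate number as a block the log2 fold change was 0.97 (adjusted p = 0.0118), and *LRP6* was no longer a DEG. The *LRP6* call was also lost without any 1 of the 3 Control replicates or CTCFL-KD replicate 2 or 3 (adjusted p = 0.0596 to 0.0797).

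Of the secreted antagonists, *SFRP1*, a Frizzled-related protein that binds Wnt ligands, was a higher DEG in CTCFL-KD. It was at 7.76, 6.64 and 7.60 across Control, 6.93, 6.48 and 8.42 across CTCFL-OE, and 22.6, 31.4 and 34.7 across CTCFL-KD. CTCFL-OE overlapped Control (log2 fold change −0.01, SE 0.20, adjusted p = 0.982), and CTCFL-KD was 4.04-fold higher (log2 fold change 2.01, SE 0.20, adjusted p = 4.72e-05). *DKK3*, the most abundant of the 3 per length at 4.10 ± 0.15 CPM per kb in Control, did not pass in CTCFL-OE (log2 fold change 0.63) or CTCFL-KD (0.37). It shares 5681 exonic bases, 47.5% of its exons, with *USP47* on the opposite strand, which had 283 to 1845 counts, so its level is uncertain. *DKK1*, which blocks *LRP5* and *LRP6*, stayed between 5 and 15 counts in every library and did not pass in either.

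The R-spondin receptors and the ligases that they restrain all passed the adjusted p in CTCFL-KD, 3 as higher DEGs and *ZNRF3* by adjusted p alone, against 38.2% and 15.3% of all genes. *LGR5*, a receptor for R-spondins and a marker of epithelial stem cells, was at 4.36, 5.09 and 4.05 across Control, 8.16, 9.51 and 10.6 across CTCFL-OE, and 28.3, 65.6 and 72.7 across CTCFL-KD. The 3 groups did not overlap, and within CTCFL-KD replicate 1 was well under the level of either other library. The rise was 12.3-fold in CTCFL-KD (log2 fold change 3.62, SE 0.33, adjusted p = 2.61e-05). In CTCFL-OE it was 2.08-fold and missed the threshold (log2 fold change 1.06, SE 0.32, adjusted p = 0.132), while DESeq2 called it (adjusted p = 0.0443) and edgeR on the 2 groups alone did too (adjusted p = 0.0125). CTCFL-KD exceeded CTCFL-OE (log2 fold change 2.56, SE 0.31, adjusted p = 0.000232).

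*LGR4*, its more widely expressed relative, was at 192, 191 and 213 across Control, 258, 250.985 and 368 across CTCFL-OE, and 232, 739 and 775 across CTCFL-KD. Replicate 1 of CTCFL-KD lay near Control and the other 2 libraries far above it, and the rise had a wide error (log2 fold change 1.55, SE 0.38, adjusted p = 0.00893). *RNF43*, a ligase that removes Frizzled from the surface, was at 2.65, 3.34 and 2.68 across Control, 1.37, 3.76 and 2.09 across CTCFL-OE, and 12.5, 12.0 and 9.91 across CTCFL-KD, and every CTCFL-KD library lay far above Control (log2 fold change 1.98, SE 0.31, adjusted p = 0.000757). CTCFL-OE spanned Control on both sides (log2 fold change −0.27, SE 0.32, adjusted p = 0.685). An annotated read-through gene on the same strand covers 68.4% of the *RNF43* exons and held at most 4 counts in any library. How reads shared by both genes were counted is not given, so the *RNF43* level is uncertain. *ZNRF3*, its paralog, was at 32.5, 34.6 and 34.1 across Control, 36.9, 43.4 and 57.9 across CTCFL-OE, and 44.01, 72.4 and 76.7 across CTCFL-KD. All CTCFL-KD libraries lay above Control (log2 fold change 0.93, SE 0.24, adjusted p = 0.0105), short of the fold threshold, and without CTCFL-KD replicate 1 *ZNRF3* was a DEG (log2 fold change 1.15).

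Of the 8 Dishevelled and destruction complex genes, which act inside the cell, *AXIN2* was a higher DEG in CTCFL-KD and *AXIN1* passed by adjusted p alone, where 15.3% of all genes were higher DEGs and 38.2% passed the adjusted p. *AXIN2*, a scaffold of the destruction complex and a widely used Wnt target, was at 2.90, 4.002 and 4.81 across Control, 3.10, 3.81 and 2.52 across CTCFL-OE, and 5.86, 9.22 and 8.93 across CTCFL-KD. CTCFL-OE overlapped Control and CTCFL-KD lay above it (log2 fold change 1.04, SE 0.26, adjusted p = 0.0104), and CTCFL-KD exceeded CTCFL-OE (log2 fold change 1.35, SE 0.27, adjusted p = 0.00422). The call sat at the fold threshold and was lost with no low-count filter (log2 fold change 0.98), with length and GC offsets (0.87), without Control replicate 1 (0.86) and without CTCFL-KD replicate 2 or 3 (0.94 and 0.95). Another annotated gene on the same strand covers 25.3% of the *AXIN2* exons and held at most 1 count in any library, so the *AXIN2* level is uncertain too. *AXIN1*, the constitutive scaffold, had a mean of 20.8 CPM in Control and 30.8 in CTCFL-KD (log2 fold change 0.56, SE 0.16, adjusted p = 0.0182).

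*CTNNB1*, the gene of β-catenin, was the most abundant of the 46 per length in Control (52.5 ± 2.0 CPM per kb). It was at 597, 613 and 643 across Control, 453, 522 and 485 across CTCFL-OE, and 526, 645 and 603 across CTCFL-KD. CTCFL-OE lay below Control without passing (log2 fold change −0.34, SE 0.18, adjusted p = 0.342), and CTCFL-KD overlapped it (log2 fold change −0.06, SE 0.18, adjusted p = 0.805). *APC*, *DVL2* and *DVL3* had log2 fold changes between −0.15 and 0.13 in CTCFL-KD and between −0.08 and 0.06 in CTCFL-OE, and did not pass. *DVL1* fell short in CTCFL-KD (log2 fold change −0.46, SE 0.17, adjusted p = 0.0536) and was lower in CTCFL-KD than in CTCFL-OE by adjusted p alone (log2 fold change −0.59, SE 0.17, adjusted p = 0.0267). *NKD1*, an inducible inhibitor of Dishevelled, had counts of 32, 41 and 23 across Control, 36, 24 and 14 across CTCFL-OE, and 27, 48 and 31 across CTCFL-KD. Its CTCFL-KD libraries lay above Control in CPM, and the difference did not pass (log2 fold change 0.67, SE 0.30, adjusted p = 0.106).

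Of the 4 TCF/LEF factors, 1 was a lower DEG in CTCFL-KD, as were 7.94% of all genes. *TCF7*, which encodes the factor TCF1, was at 7.01, 6.88 and 7.24 across Control, 5.75, 4.70 and 5.78 across CTCFL-OE, and 1.17, 1.07 and 1.70 across CTCFL-KD. It fell 5.28-fold in CTCFL-KD (log2 fold change −2.40, SE 0.23, adjusted p = 3.48e-05), and the highest CTCFL-KD library, 1.70 CPM, lay below the lowest of the others, 4.70 CPM. CTCFL-OE also lay below Control without passing (log2 fold change −0.38, SE 0.21, adjusted p = 0.356). *TCF7* shares 210 exonic bases, 2.08% of its exons, with *SKP1* on the opposite strand. *LEF1* had counts of 29, 30 and 33 across Control, 36, 25 and 16 across CTCFL-OE, and 16, 21 and 21 across CTCFL-KD and did not pass in either comparison (log2 fold change −0.16, SE 0.29, adjusted p = 0.676 in CTCFL-KD). *TCF7L2* and *TCF7L1*, the 2 most abundant factors per length in Control at 4.26 ± 0.086 and 3.67 ± 0.23 CPM per kb, had log2 fold changes of −0.41 and 0.43 in CTCFL-KD and did not pass. Among the feedback genes *AXIN2*, *LGR5*, *RNF43*, *ZNRF3*, *NKD1* and *LEF1*, 3 were higher DEGs in CTCFL-KD, 1 passed by adjusted p alone and 2 did not pass, where 15.3% of all genes were higher DEGs and 38.2% passed the adjusted p.

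**Figure D4:**
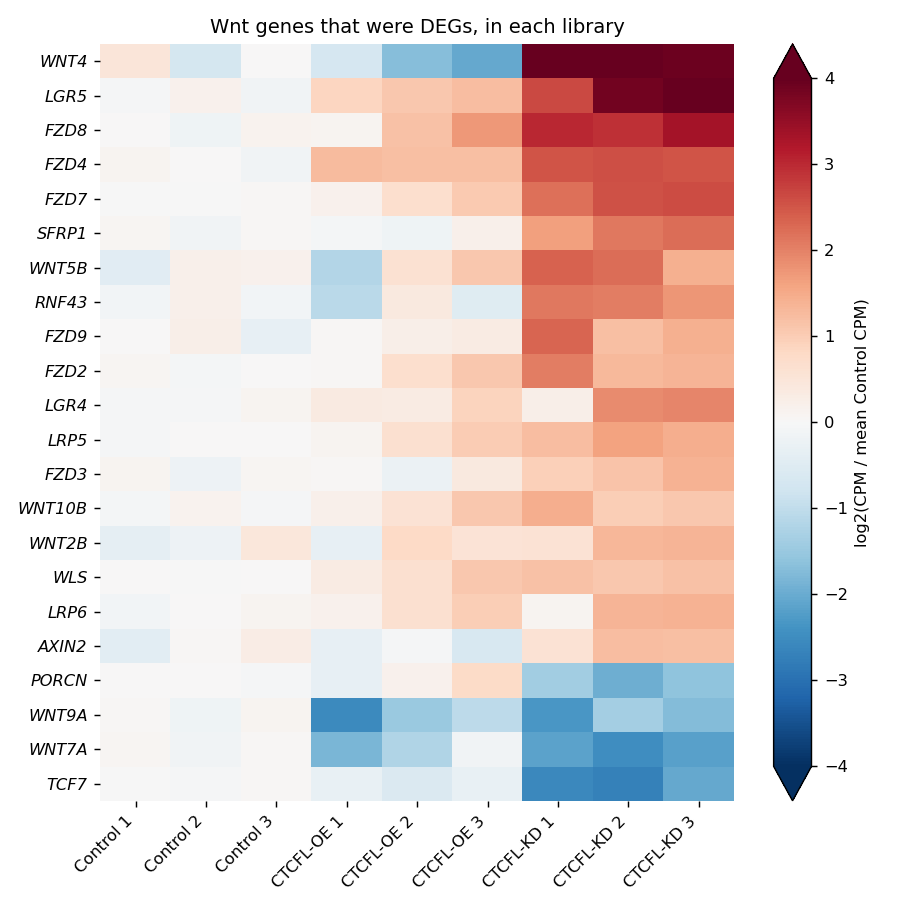
Log2 ratio of the CPM in each library (columns) to the mean Control CPM for the 22 Wnt genes that were DEGs in either comparison (rows, ordered by the CTCFL-KD fold change); the colour scale ends at 4 in either direction and values beyond it take the end colour. Ratios run from −2.72 to 4.72, and 18 genes are higher and 4 lower across the CTCFL-KD columns.

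Position within the groups was uneven. In CTCFL-OE, replicate 3 was the highest of the 3 libraries for 29 of the 44 genes and replicate 1 the lowest for 29, where replicate 3 was highest for 31.8% and replicate 1 lowest for 40.0% of all genes tested. Mitochondrial genes took 14.9% of the counts in replicate 3 and 7.40% in replicate 1, and their part in these values was not tested. The CTCFL-OE libraries all lay above all Control libraries for 12 of the 44 genes and below them for 8, and 16.3% and 20.8% of all genes tested did so. The 12 included 4 Frizzled genes, both co-receptors and 3 of the 4 R-spondin receptor and ligase genes, and the 8 included 5 ligands. In CTCFL-KD, 25 of the 44 lay wholly above Control and 11 wholly below, against 28.7% and 27.6% of all genes.

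The treated groups were also compared with each other, although they came from separate experiments, whose difference cannot be told apart from that of the treatments. CTCFL-KD was higher than CTCFL-OE in 12 Wnt genes and lower in 3 as DEGs at an adjusted p under 0.05, against 10.6% and 6.42% of all genes tested, and 19 passed the adjusted p, against 26.8% of all genes. The 12 were *WNT4*, *WNT5B*, *WNT11*, *FZD3*, *FZD4*, *FZD7*, *FZD8*, *FZD9*, *SFRP1*, *LGR5*, *RNF43* and *AXIN2*, and the 3 were *WNT7A*, *PORCN* and *TCF7*. Besides the losses given above for *WNT11* and *WNT7A*, *WNT5B* and *FZD3* were lost in some alternatives. *WNT5B* was lost with edgeR on the 2 groups compared and without CTCFL-OE replicate 1 or 2 or CTCFL-KD replicate 2. *FZD3* was lost without CTCFL-OE replicate 2 or CTCFL-KD replicate 3. *FZD2*, *LRP5* and *AXIN1* were higher and *DVL1* lower by adjusted p alone. For *WLS*, *LRP6*, *LGR4*, *ZNRF3*, *WNT2B* and *WNT10B*, the CTCFL-KD and CTCFL-OE libraries overlapped and their difference did not pass (adjusted p = 0.0722 to 0.33).

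A further 95 genes of the pathway, from lists of other ligands, secreted modulators, non-canonical receptors, destruction complex regulators, nuclear cofactors and targets, were read from the same fit. Of these 76 were tested. In CTCFL-OE, 3 were DEGs, all of them lower, where 1.37% of all genes were higher and 0.702% lower DEGs. These 3 calls were lost without any single Control replicate and without CTCFL-OE replicate 2, where 0 of the list were DEGs. In CTCFL-KD 17 of the 76 were higher and 8 lower DEGs, 22.4% and 10.5%, against 15.3% and 7.94% of all genes. The other 6 Wnt ligands, among them *WNT1*, *WNT2* and *WNT16*, held at most 9 counts in any library and were not tested.

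Of 9 secreted modulators tested, 4 were higher DEGs and 3 lower in CTCFL-KD, against 15.3% and 7.94% of all genes. *FRZB*, 1 of the 4, was tested only because of its CTCFL-KD counts, and 11 scarce genes of the list were not tested. *FRZB*, a Frizzled-related antagonist, had counts of 2, 4 and 0 across Control, 0, 1 and 1 across CTCFL-OE, and 69, 76 and 104 across CTCFL-KD (adjusted p = 1.6e-05). *SOSTDC1*, an antagonist of *LRP5* and *LRP6*, also rose (log2 fold change 2.55), and *TRABD2A*, a protease that cleaves Wnt ligands, and *NOTUM*, which removes their lipid, fell (−2.38 and −2.23). R-spondins themselves were scarce, with at most 14 counts of *RSPO1* and at most 5 of *RSPO2*, *RSPO3* and *RSPO4*.

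Of 16 non-canonical receptors and planar polarity genes, 5 were higher DEGs and 1 lower in CTCFL-KD, against 15.3% and 7.94% of all genes. *GPC3*, *PTK7* and *CELSR1*, a proteoglycan, a pseudokinase co-receptor and an atypical cadherin, rose (log2 fold change 2.57, 1.74 and 1.71), and *DAAM2*, a formin, fell (−1.72). Of 18 destruction complex regulators 1 was a DEG in CTCFL-KD, *DACT3* (−1.04), and of 17 nuclear cofactors 1, the corepressor *TLE2* (1.18), against the same shares of all genes. In CTCFL-OE the corepressor *TLE4* fell (log2 fold change −1.29, adjusted p = 0.0489), a call lost without any single Control replicate or CTCFL-OE replicate 2 or 3, and in CTCFL-KD it rose by adjusted p alone (log2 fold change 0.83, adjusted p = 0.0204).

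Of 16 TCF and β-catenin targets tested, 7 were higher DEGs and 3 lower in CTCFL-KD, against 15.3% and 7.94% of all genes. *ASCL2* and *PROX1*, among the 7, were tested only because of their CTCFL-KD counts. *FGF9*, a growth factor, had counts of 17, 18 and 25 across Control, 42, 28 and 18 across CTCFL-OE, and 100, 198 and 231 across CTCFL-KD (log2 fold change 3.58). *ASCL2*, a factor of intestinal stem cells, rose (2.58), and *CD44*, an adhesion receptor, fell (−2.87). *PROX1* counts were 2, 0 and 1 in Control and 12, 30 and 48 in CTCFL-KD, at least 13.1-fold higher against a floor of 3 counts per library. In CTCFL-OE the lower DEGs of this list were *SOX9* and *EDN1* (log2 fold change −1.06 and −1.16). Both calls were lost without any single Control replicate or CTCFL-OE replicate 2, and that of *EDN1* also without CTCFL-OE replicate 3 or CTCFL-KD replicate 2. *SOX9* fell in CTCFL-KD too (−1.03), and *EDN1* rose there (1.75). *CCND1*, which encodes cyclin D1 and is named here after its values were seen, fell in CTCFL-KD (−2.28, adjusted p = 9.27e-06) and by adjusted p alone in CTCFL-OE (−0.75, adjusted p = 0.0633).

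RefSeq promoter windows of 300 bases, 250 before and 50 after the start, were found for 31 of the 46 genes, 41 windows in all. *AXIN2*, *LGR5*, *FZD2* and *FZD7* were among the 15 genes with none. The letters AGGGGGC, on either strand, stood in 8 of the 41 windows (19.5%) and in 14.4% of all 35116 windows. The 8 belonged to *WNT2B*, *WNT6*, *WNT7A*, *FZD4*, *FZD5*, *DKK1*, *CTNNB1* and *TCF7L2*, of which *WNT2B* and *FZD4* were higher DEGs, *WNT7A* a lower DEG and the others no DEG in CTCFL-KD. The TCF/LEF letters CTTTGAT or CTTTGAA stood in 1 window, that of *DKK1* (2.44%), and in 6.86% of all windows. Median GC was 67.0% in the windows of the Wnt genes and 58.7% in all windows.

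Markers of other cell types were read beside these results, because ligands and antagonists of this pathway are also made by stroma. The 20 fibroblast genes summed to 411 to 415 CPM across Control, 344 to 554 across CTCFL-OE, and 427 to 853 across CTCFL-KD. *DCN*, *LUM*, *PDGFRA* and *COL6A3* held at most 9 counts in any library, *COL3A1* at most 9, and *COL1A2* went from 0 counts in all Control libraries to 156, 239 and 247 in CTCFL-KD. Others of the list were expressed, with *COL1A1*, *FBLN1*, *S100A4* and *SPARC* at 21.3 to 459 CPM across all libraries. Of 12 fibroblast genes tested, 4 were higher DEGs and 1 lower in CTCFL-KD, against 15.3% and 7.94% of all genes. The higher ones included *COL5A2* and *TWIST1* (log2 fold change 3.51 and 2.03), and the lower one was *MMP2* (−2.75). *COL1A2* and *POSTN* were tested only because of their CTCFL-KD counts. The 8 leukocyte genes summed to at most 6.76 CPM and the 7 endothelial genes to at most 21.0, with *PTPRC* at most 8 counts, *CD3E* and *CD68* at most 1, *EMCN* at 0 and *CDH5* at most 7. The part of other cells in the Wnt values was not tested. In these bulk libraries, fewer expressing cells and less RNA per cell cannot be told apart.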

How the data were processed

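RNA-seq of 9 OVCAR3 libraries was used, 3 per group, and groups were taken from the sample labels. Per the study's methods, the authors trimmed reads with Trimmomatic and mapped them with STAR on GRCh38. They counted reads per gene with featureCounts and deposited raw, unnormalized counts. The submitters' processing notes also list kallisto. Which annotation release and strand setting were used is not given in the sources used here. How multi-mapping reads, or reads shared by overlapping genes, were handled is not given either. Genes that overlap others on either strand are therefore uncertain. The 9 single-library files held the same counts as the matrix.

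Total counts of 14332622 to 24490080 per library set the precision, and p-values measure the spread between replicates that the study calls biological. Symbols matched 60419 of 60660 identifiers, and positions and exon lengths came from GENCODE release 44. Genes were kept by filterByExpr, scaled by TMM and fitted over all 9 libraries with edgeR 4.0.16 (glmQLFit, robust, and glmQLFTest) in R 4.3.3, with Benjamini-Hochberg adjustment over the 17794 genes kept. The study's methods name DESeq2, which was an alternative here (1.42.0). CPM are counts divided by TMM-scaled library sizes, and levels between genes were compared per kilobase of merged exons. A fold against a group at or under 3 counts in every library was computed against 3 counts per library. Tables were made with Python 3.11.15, pandas 2.3.3 and numpy 2.4.6, and figures with matplotlib 3.10.9.

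Replicate numbers stand in the labels. Deviations from group means correlated across 15371 genes at 0.251, 0.151 and 0.173 for same-numbered Control and CTCFL-KD libraries, and at 0.12, 0.107 and 0.105 with length and GC trends removed, every pair above 0.1, although the study describes separate experiments. The reported fit has no block, and the block by replicate number was run as an alternative. For Control and CTCFL-OE the correlations were −0.03, 0.188 and −0.05, and the numbers were not taken to pair these samples.

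Alternatives were DESeq2, upper-quartile or RLE scaling, edgeR on only the groups compared, no filter, at least 10 counts in every library, the replicate block, loess offsets for length and GC with and without the block, and each library left out in turn. The members and lists were chosen with earlier results of these data known. By a rule, values in every library are given for members that were DEGs against Control, for *WNT9A* and *FZD4* and for 6 feedback genes. Those of *WNT10A*, *WNT6*, *WNT11* and *CTNNB1* were added after their values were seen. Up to 4 related DEGs per list with at least 1 CPM in a group are named by the same rule. No columns of the matrix were left unused.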

Additional observations from a re-analysis of the deposited data

How the results depend on the processing

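In CTCFL-OE the count of Wnt DEGs, 2 as reported where 2.07% of all genes were DEGs, was 5 with DESeq2 (3.02% of all genes), with edgeR on the 2 groups compared (4.88%), with no low-count filter (2.18%) and with length and GC offsets (3.44%), 6 with the replicate block and those offsets together (3.34%), 3 with upper-quartile scaling (2.53%), and 1 to 6 with a library left out (0.24% to 6.45%). It was 1 without any single Control replicate or CTCFL-OE replicate 2, where *WNT9A* was lost and 0.24% to 0.431% of all genes were DEGs, 4 without CTCFL-OE replicate 1 or 3 (6.45% and 0.591%) and 6 without CTCFL-KD replicate 1 (5.33%). *FZD4* remained a DEG in all 18 alternatives, and the genes added were *FZD8*, *LGR5*, *WNT11*, *WNT7A* and *WNT4*. The count of other pathway genes, 3 as reported, was 6 with edgeR on the 2 groups and with no filter, 5 with length and GC offsets with or without the block, and 0 to 6 with a library left out. It was 0 without any single Control replicate or CTCFL-OE replicate 2, 1 without CTCFL-OE replicate 3 and 6 without CTCFL-KD replicate 1. In CTCFL-KD the Wnt count of 22 was 19 to 24 in all alternatives (13.6% to 24.7% of all genes), that of other pathway genes, 25, was 19 to 28, and the 15 DEGs between CTCFL-KD and CTCFL-OE were 12 to 16. The replicate block gave 21 in CTCFL-KD, where it removed *LRP6*, and it changed no other call of a Wnt gene against Control. *WNT4* and *WNT5B* were not tested at 10 or more counts in every library. Log2 fold changes in CTCFL-OE that did not pass turned sign for *RNF43*, −0.76 to 0.013 with a library left out, and for *LEF1*, −0.31 to 0.049. The causes were not tested.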
